A study of Homo sapiens with 5 samples.

Results

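Distal sites that carried both BRG1 and ACTL6A were examined in SNU638, an established human gastric cancer cell line. The sites were chosen by peak position: a BRG1 peak was taken when it lay farther than 1 kb from the 5′ end of every protein-coding transcript, shared at least 1 bp with an ACTL6A peak, and shared no base with a peak of NRF2 or of the second IgG library. Of 48793 BRG1 peaks 33628 were distal, and 4539 of them (13.5%) met the rule. Another 754 distal peaks with ACTL6A were left out for NRF2 alone, 33 for IgG alone and 198 for both. Of the sites kept, 1 met a peak of the first IgG library, whose list held only 11 peaks against 1746 in the second. The lists of ACTL6A and NRF2 held 23917 and 9045 peaks. Binding had been mapped by CUT&Tag, in which an antibody tethers a transposase that cuts and tags the nearby DNA, with 1 library each for anti-BRG1 (Proteintech), anti-ACTL6A (Abcam) and anti-NRF2 (Cell Signaling Technology) and 2 for normal IgG (Millipore). The labels name neither a genetic change nor a treatment, and all libraries came from the same line. Without replicate libraries no p-value was computed, and every interval given here covers counting error over sites only.

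BRG1, the product of SMARCA4, is an ATPase that drives the SWI/SNF (BAF) chromatin remodelling complex, which slides and evicts nucleosomes. ACTL6A, also called BAF53a, is an actin-related subunit of that complex and also belongs to the INO80 and TIP60 complexes. Away from promoters, SWI/SNF is known for keeping enhancers accessible, often together with AP-1, a dimer of FOS and JUN family proteins, while CTCF is a zinc finger protein that marks chromatin loop anchors.

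The sites are best introduced by sequence, because sequence took no part in choosing them. The 6 windows that follow are those with the most BRG1 fragments among sites with an AP-1 match, 1 per nearest gene, each 200 bp around the BRG1 summit on the plus strand of GRCh38 (hg38), with matches to TGANTCA in capitals.
HROB, between genes, chr17:44138256-44138455: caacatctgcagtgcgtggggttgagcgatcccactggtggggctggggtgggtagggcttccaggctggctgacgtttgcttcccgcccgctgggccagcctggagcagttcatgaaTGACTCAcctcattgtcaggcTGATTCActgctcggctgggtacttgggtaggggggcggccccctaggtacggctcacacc
COMMD9, intron of LDLRAD3, chr11:36149876-36150075: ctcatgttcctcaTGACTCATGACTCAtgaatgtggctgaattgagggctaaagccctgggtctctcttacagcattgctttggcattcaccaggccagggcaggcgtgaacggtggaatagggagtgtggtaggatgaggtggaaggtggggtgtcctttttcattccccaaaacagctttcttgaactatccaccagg
NPIPB11, lncRNA gene ENSG00000284685, chr16:29265431-29265630: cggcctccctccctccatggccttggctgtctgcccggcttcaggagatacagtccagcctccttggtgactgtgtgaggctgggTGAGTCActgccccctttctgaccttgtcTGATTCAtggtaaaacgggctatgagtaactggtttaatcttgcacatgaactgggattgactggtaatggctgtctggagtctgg
PSMD6, lncRNA genes LINC00994 and PRICKLE2-AS1, chr3:64084784-64084983: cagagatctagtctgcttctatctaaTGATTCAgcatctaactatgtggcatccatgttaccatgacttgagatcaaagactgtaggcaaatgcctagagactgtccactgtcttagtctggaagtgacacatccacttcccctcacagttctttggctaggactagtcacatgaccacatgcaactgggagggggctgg
MST1R, intron of MST1R, chr3:49900807-49901006: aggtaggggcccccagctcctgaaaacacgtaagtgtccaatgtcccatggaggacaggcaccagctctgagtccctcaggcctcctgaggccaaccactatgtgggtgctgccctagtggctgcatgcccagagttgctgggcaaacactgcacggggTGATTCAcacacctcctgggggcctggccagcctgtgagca
FADD, between genes, chr11:70233634-70233833: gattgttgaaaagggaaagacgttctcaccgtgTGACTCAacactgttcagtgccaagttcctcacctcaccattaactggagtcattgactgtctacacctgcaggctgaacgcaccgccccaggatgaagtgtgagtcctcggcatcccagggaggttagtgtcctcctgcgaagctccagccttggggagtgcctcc

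The HROB site had 152 BRG1 fragments at its summit against 7.44 expected, and 28 ACTL6A fragments against 1.51. The COMMD9 site had 130 BRG1 and 29 ACTL6A fragments, and in it 2 AP-1 matches stood directly side by side. The sites near NPIPB11, PSMD6, MST1R and FADD had 128, 127, 122 and 121 BRG1 fragments and 17, 16, 21 and 28 ACTL6A fragments. MST1R encodes a receptor tyrosine kinase of epithelial cells and FADD an adaptor of death receptors. The nearest match lay 12 bp from the BRG1 summit in the NPIPB11 window and 77 bp from it in the COMMD9 window, the extremes of the 6.

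The next 4 windows show the highest site for each of the other 4 motifs that were most in excess over the flanks, with the match in capitals. They were SP (GGGGCGG), the core of the antioxidant response element (ARE core, TGACNNNGC), ETS (CNGGAAG) and CTCF (its consensus core).
C17orf99, SP, intron of TMC8, chr17:78140427-78140626: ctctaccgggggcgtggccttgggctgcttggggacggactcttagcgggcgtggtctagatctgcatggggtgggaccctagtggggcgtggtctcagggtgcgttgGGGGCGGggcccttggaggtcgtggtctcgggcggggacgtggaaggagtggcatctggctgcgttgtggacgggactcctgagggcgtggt
ARHGAP45, ARE core, intron of ARHGAP45, chr19:1082264-1082463: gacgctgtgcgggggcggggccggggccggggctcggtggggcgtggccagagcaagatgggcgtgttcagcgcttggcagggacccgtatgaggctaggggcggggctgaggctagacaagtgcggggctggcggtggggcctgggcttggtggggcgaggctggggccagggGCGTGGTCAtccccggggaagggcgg
TPTE, ETS, lncRNA gene ENSG00000280441, chr21:8395416-8395615: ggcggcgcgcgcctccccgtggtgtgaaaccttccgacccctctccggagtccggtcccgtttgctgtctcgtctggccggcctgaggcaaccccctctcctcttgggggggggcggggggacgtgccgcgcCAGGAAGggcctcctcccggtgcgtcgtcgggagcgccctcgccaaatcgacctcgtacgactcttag
DGKZ, CTCF, exon of DGKZ, chr11:46369554-46369753: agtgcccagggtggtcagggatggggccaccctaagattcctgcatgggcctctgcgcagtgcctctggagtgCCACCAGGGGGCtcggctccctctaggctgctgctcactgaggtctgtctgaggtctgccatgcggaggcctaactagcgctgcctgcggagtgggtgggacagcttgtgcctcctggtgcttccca

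The C17orf99 site had the most BRG1 fragments of all 4539 sites, 209 against 12.8 expected, with 45 ACTL6A fragments against 2.72. The ARHGAP45 site had 138 BRG1 and 22 ACTL6A fragments. In the TPTE window, on the short arm of chromosome 21, 154 BRG1 fragments stood against 55.9 expected, a fold enrichment of 2.72. The DGKZ site, in an exon of the diacylglycerol kinase zeta gene and 1868 bp from its nearest 5′ end, had 59 BRG1 and 16 ACTL6A fragments.

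Overlap, height and width belong to the measures that chose the sites, and are given as a description. The fragments at a summit are a whole number recovered from the peak caller's fold enrichment and p-value. The sites had a median of 15 BRG1 fragments at the summit (quartiles 8 and 27) where 1.04 were expected, and a median of 7 ACTL6A fragments (quartiles 5 and 10.0) where 0.449 were expected. Distal BRG1 peaks without ACTL6A or NRF2 (n = 27379) had a median of 7 BRG1 fragments, and the 754 distal sites that held NRF2 as well had 34. Sites with BRG1 and ACTL6A thus stood between those that lacked ACTL6A and those that also held NRF2. The median BRG1 peak was 303 bp wide, against 191 bp without ACTL6A and 540 bp with NRF2.

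Among distal BRG1 peaks without NRF2 or IgG, the share with an ACTL6A peak rose in every step with BRG1 height. It was 4.79% (Wilson 95% interval 4.40% to 5.21%) at 5 fragments or fewer, 19.1% (17.8% to 20.4%) at 12 to 15 fragments and 72.7% (68.5% to 76.5%) at 48 and more. Across the 4508 sites with both numbers recovered, BRG1 and ACTL6A fragments were related with a Spearman rank correlation of 0.63 and a Pearson's r of 0.62 on the log2 scale, a description over sites of the same 2 libraries. The median site held 2.13 times as many BRG1 as ACTL6A fragments, a ratio that also depends on the depth of each library.

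The summits of the 2 proteins lay close together. The median distance was 58.0 bp, 45.4% of sites had summits within 50 bp of each other, and 90.1% within 200 bp. Taking for each site the ACTL6A peak with which it shared most bases, the 4539 sites had 4513 such peaks, of which 26 were shared by more than 1 site. A further ACTL6A peak was met by 27 of the sites. At the edges of the rule, the closest sites kept lay 1013 bp (NAV2), 1018 bp (C15orf39) and 1019 bp (SLC3A1) from a 5′ end, and the closest left out lay at 1000 bp (GADD45A), 999 bp (LUZP1) and 997 bp (TMEM131L). Of the sites 235 shared under 50 bp with their ACTL6A peak, with the smallest overlap at 1 bp, and 245 distal BRG1 peaks counted as lacking ACTL6A had an ACTL6A peak within 100 bp.

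The 10 sites with the most BRG1 fragments were spread over 5 chromosomes and, except near TPTE, lay within 40 kb of a protein-coding 5′ end. After C17orf99 came a site in an intron of RASA4B nearest to POLR2J, which encodes an RNA polymerase II subunit, with 185 BRG1 and 46 ACTL6A fragments. A site in an intron of C7orf50 nearest to GPR146 had 177 and 57, and a site in lncRNA genes near DBNL, an actin-binding adaptor, had 175 and 52. A site in an intron of TMEM242 had 154 and 115, so that ACTL6A came closer to BRG1 there than at most sites. The site near CHAMP1 was 167 bp wide and had the highest BRG1 fold enrichment of all, 39.3, with 149 BRG1 and 51 ACTL6A fragments. A site in an intron of TRPM2, a calcium-permeable channel, nearest to LRRC3, had 147 BRG1 and 133 ACTL6A fragments. The other 3 were the HROB site and a pair near TPTE, with 154 and 153 BRG1 fragments.

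The pair near TPTE lay more than 2 Mb from that gene, at chr21:8395429-8395745 and chr21:8212402-8212651, where they overlapped the 5.8S ribosomal RNA genes RNA5-8SN3 and RNA5-8SN2. Both stood on a high expectation, 55.9 and 60.3 fragments, and their ACTL6A peaks did too, at 17.2 and 16.2. Ranked by ACTL6A instead, the first 5 sites were one at chrY:11721929-11722085, 940283 bp from USP9Y, with 135 ACTL6A and 70 BRG1 fragments, then those at LRRC3 and TMEM242, then EEF1A2 (73 ACTL6A, 23 BRG1) and TEX14 (70 ACTL6A, 18 BRG1). At EEF1A2, a translation elongation factor gene, and at TEX14 the ACTL6A peak ran past the BRG1 peak and its summit lay 168 bp and 567 bp away.

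AP-1 had the largest excess over the flanks in percentage points, although CTCF stood higher as a ratio to them. Of the 4539 summit windows 1008 (22.2%, 21% to 23.4%) held TGANTCA, against 5.16% (4.72% to 5.63%) of the flanking windows 1 kb to each side and 13.2% of all BRG1 summits. Among 16 motifs searched on both strands, the excess of AP-1 was 17.1 points, followed by SP at 5.2, CTCF at 5.1, and ARE core and ETS at 5.0 each. SP matches were in 8.48% of summit windows against 3.28% of flanks, CTCF in 5.29% against 0.176%, ARE core in 12.7% against 7.71% and ETS in 19.7% against 14.7%. Of the 576 sites with an ARE core, 20.0% had it overlapping an AP-1 match, since the letters of both can be shared.

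Motifs of lineage factors did not all go the same way. GATA matches (AGATAA) were in 4.23% of summit windows (3.68% to 4.86%) and 8.98% of flanks (8.41% to 9.58%), and CDX matches (GCNATAAA) in 0.749% and 1.81%. Forkhead and KLF stood higher at summits, 3.06% against 2.08% and 12.3% against 9.58%. HNF1 and SOX stood lower, 0.132% against 0.573% and 1.45% against 2.48%. HNF4, in only 8 summit windows, was at 0.176% (0.0893% to 0.347%) against 0.242% (0.160% to 0.367%), with overlapping intervals. C/EBP (TTGCNNAA) also stood lower at summits, 4.65% against 7.84%, while TEAD (GGAATG, the partner of YAP) was at 12.4% against 10.2%. Base composition moved with these shares, the median GC content being 59.0% at summits and 48.5% in flanks, and its part in them was not tested. Of the sites 1427 held none of the 16 motifs.

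The AP-1 heptamer with a central C or G accounted for most of the excess. TGACTCA or TGAGTCA was found in 19.0% of sites (17.9% to 20.1%) and 2.92% of flanks, and TGAATCA or TGATTCA in 5.62% (4.98% to 6.33%) and 2.31%. This split was made after the data had been seen. AP-1 matches gathered within about 100 bp of the summit, reaching 3.99 matches per 100 sites in the 20 bp bin centred 30 bp before it. The nearest match lay a median of 36.0 bp from the summit, and 311 sites held more than 1.

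AP-1 and CTCF matches rarely stood in the same window. CTCF was found in 12 of the 1008 sites with AP-1 (1.19%) and in 228 of the 3531 without (6.46%), a difference of -5.3 points (-6.9 to -3.1). Distal BRG1 peaks without ACTL6A or NRF2 showed the same direction, 1.03% against 2.72%, a difference of -1.7 points (-2.2 to -0.97). TEAD and AP-1 matches stood together more often, TEAD being in 18.7% of sites with AP-1 and 10.7% without, a difference of 8.0 points (3.9 to 12.6), and in 17.3% and 11.5% of the BRG1 peaks without ACTL6A or NRF2. The median GC content was 52.5% in sites with AP-1 and 60.0% in sites with CTCF, and its part in these pairs was not tested. These pairs were chosen after the shares had been seen.

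Sites with AP-1 differed from the rest in height and position. They had a median of 22 BRG1 fragments, against 13 without, and 7 ACTL6A fragments in both. They lay a median of 26046 bp from the nearest 5′ end against 18681 bp, 3.47% of them in exons against 9.20%. Sites with CTCF had a median of 14.5 BRG1 fragments and lay at a median of 14890 bp.

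The share with AP-1 was 22.2% in sites with BRG1 and ACTL6A and 16.2% in distal BRG1 peaks without ACTL6A or NRF2. The difference of 6.0 points had an interval from 3.9 to 8.2 points, at the 99.90% level that gives 95% over the 48 differences of 16 motifs and 3 sets of sites. It did not hold among peaks of like height. Within under 8, 8 to 15, 16 to 31 and 32 and more BRG1 fragments the shares with and without ACTL6A were 7.96% and 10.6%, 17.9% and 20.7%, 29.1% and 30.5%, and 34.3% and 31.5%, and each interval of the difference included 0. In both sets the share rose with BRG1 fragments. Standardised to the heights of the sites with ACTL6A, the difference was -1.3 points (-3.8 to 1.2), and over height and GC content jointly -0.53 (-2.9 to 1.8). With GC content alone as strata it was larger than without strata, 7.5 points (5.5 to 9.5).

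For CTCF the difference remained when peaks of like height were compared. Its share was 5.29% with ACTL6A and 2.44% without ACTL6A or NRF2, a difference of 2.8 points (1.8 to 4.1), and standardised over height and GC content it was 1.8 points (0.49 to 3.1). The interval lay above 0 in the lower classes, with 3.18% against 1.17% under 8 fragments and 7.18% against 3.98% at 8 to 15. At 16 to 31 fragments the shares were 6.33% and 4.71%, at 32 and more 3.00% and 2.78%, and both intervals included 0. With a −log10 q of 5 or more required of the BRG1 peaks in both sets and of the ACTL6A peaks, the difference was 0.26 points (-1.6 to 2.7). BRG1 peaks whose ACTL6A peak fell below that threshold were in neither set. SP was also higher with ACTL6A, by 2.6 points (1.2 to 4.1), and it turned to -1.4 points (-3.2 to 0.42) when standardised over height. For the other 13 motifs the interval of the difference included 0.

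**Figure D1:**
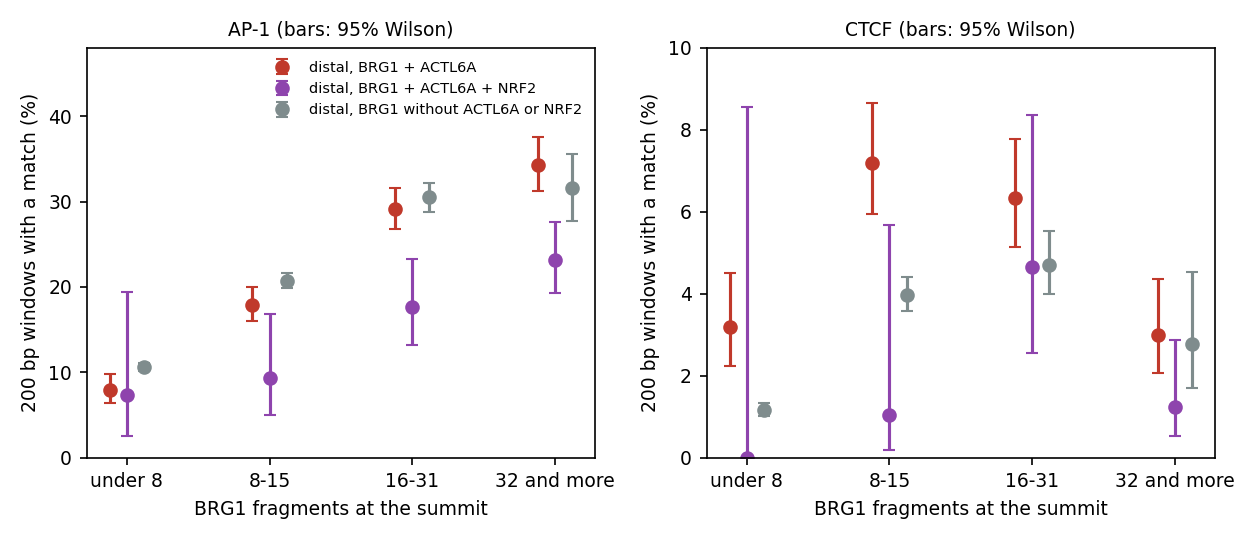
Percentage of 200 bp windows with an AP-1 (left) or CTCF (right) match in 4 classes of BRG1 fragments, for 3 sets of distal sites, with 95% Wilson intervals. Sites with and without ACTL6A have overlapping AP-1 shares at 16 fragments and more, from 29.1% to 34.3%, whereas CTCF is higher with ACTL6A in the 2 lower classes.

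Sites with NRF2 in addition held AP-1 in 19.0% of windows, and the difference from the sites without NRF2, 3.2 points (-2.2 to 8.0), included 0. In the upper classes of height the sites without NRF2 had more AP-1, 29.1% against 17.7% at 16 to 31 fragments and 34.3% against 23.2% at 32 and more, with both intervals above 0. Under 8 fragments the shares were 7.96% and 7.32% and at 8 to 15 they were 17.9% and 9.38%, and both intervals included 0. By GC content the difference was 27.2 points at 40% to 50%, -0.44 at 50% to 60% and -5.4 (-11.9 to -0.23) at 60% and more, so that its direction depended on base composition. SP matches were fewer without NRF2, 8.48% against 19.8%, a difference of -11.3 points (-16.6 to -6.7). At 16 to 31 and at 32 and more fragments it was -9.0 and -10.1 points with intervals below 0, and in both lower classes the interval included 0. CTCF was higher by 3.2 points (0.47 to 4.8) and GATA by 2.6 points (0.16 to 4.1) over all sites, but for both motifs the interval included 0 in every class of height and of GC content. The ARE core was in 12.7% of windows without NRF2 and 14.9% with it. That difference of -2.2 points (-7.1 to 2.0) included 0, as it did in every class of height and of GC content.

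Promoter sites with BRG1 and ACTL6A and no NRF2 (n = 2732) differed most in sequence. AP-1 was in 5.05% of them, the distal sites being higher by 17.2 points (14.7 to 19.6), and SP in 33.2%, a difference of -24.8 points for the distal sites (-28.0 to -21.5). The distal sites also had more TEAD (4.7 points), CTCF (4.2), ARE core (2.9), GATA (2.4) and forkhead matches (TGTTTAC, 2.0), and fewer ETS (-7.3 points), KLF (GGGNGTGG, -4.4) and CRE matches (TGACGTCA, -0.88). In classes of like height or GC content, which hold fewer sites, several of these had intervals that included 0. For ARE core, KLF and CRE the interval included 0 in every class of BRG1 fragments and of GC content. For TEAD, GATA and forkhead it did so in every GC class. By BRG1 fragments the differences themselves stayed, at 2.5 to 4.9 points for ARE core and -3.7 to -3.4 for KLF. By GC content they were 1.7 to 8.3 for ARE core and -2.5 to -1.7 for KLF. AP-1, SP, ETS and CTCF had intervals that left out 0 in some or all classes of both kinds. Their median GC content was 59.0% against 64.5%, with 5 against 15 CpG in 200 bp.

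Introns of protein-coding genes held 1848 sites (40.7%, 39.3% to 42.2%), exons 360 (7.93%) and lncRNA genes 650 (14.3%), and 1584 (34.9%) lay outside any gene. The median distance to a protein-coding 5′ end was 19971 bp, 31.9% lay within 10 kb and 86.0% within 100 kb. Exons held fewer of these sites than of the BRG1 peaks without ACTL6A or NRF2, 7.93% against 9.97%, a difference of -2.0 points (-3.4 to -0.51). Within classes of height the difference was -1.0, -3.4, -4.2 and -6.5 points from the lowest class to the highest, with an interval below 0 in the upper 3. Within 1 kb of a lncRNA 5′ end lay 10.2% of the sites against 5.78%, a difference of 4.4 points (2.9 to 6.0), but within classes of height it was 1.0 to 1.7 points and each interval included 0.

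Sites that also held NRF2 lay near a lncRNA 5′ end far more often, in 31.4% of cases (28.2% to 34.8%), a difference of -21.3 points (-27.2 to -15.8) for the sites without NRF2. The difference was -15.2, -25.5 and -17.9 points in the classes of 8 to 15, 16 to 31 and 32 and more fragments. Under 8 fragments, where 41 sites held NRF2, the shares were 4.78% and 4.88%, a difference of -0.10 points (-23.1 to 5.0).

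A site was assigned to the nearest protein-coding 5′ end within 100 kb, which placed 3903 sites at 3057 of 19689 genes (15.5%). Most of these genes, 2442, had 1 site, and 156 (0.792%) had at least 3. By the same assignment 51.8% of genes had a distal BRG1 peak without ACTL6A or NRF2. RPTOR, the gene of the mTORC1 subunit raptor, held 8 sites, all inside it, with 6 to 66 BRG1 fragments, beside 16 BRG1 peaks without ACTL6A or NRF2. MTHFD1L, a mitochondrial one-carbon enzyme, had 6 sites with 10 to 69 fragments, of which 3 held AP-1. PTPRN2, a phosphatase-like protein of secretory granules, had 6 inside the gene with 6 to 46, and RAI1 had 6 with 8 to 44.

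Genes with 5 sites were NBPF1, BAHCC1, ARHGAP23, GALNT9, ASB1, NAV2, RAP1GAP2 and PTPN1, with highest values between 24 fragments at PTPN1, a tyrosine phosphatase, and 71 at ASB1. At IZUMO2 with 9 sites, CCDC200 with 6 and SULT2A1 with 4, most or all sites were copies of a repeated sequence, described further on. Some sites near NBPF1 also shared near-identical windows with other sites.

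Gene lists were read against the 15.5% of all genes with a site and against the 51.8% with a BRG1 peak lacking ACTL6A or NRF2. Of 33 epithelial adhesion and keratin genes 14 had a site (42.4%, 27.2% to 59.2%), and 26 (78.8%) had a BRG1 peak without ACTL6A or NRF2. A median gene had 0 sites in every list, as over all genes. KRT19, a keratin of simple epithelia, led the list with 4 sites at 1853, 7528, 19539 and 20440 bp from its start, none inside a gene. Their BRG1 fragments were 33, 14, 36 and 37 and their ACTL6A fragments 8, 6, 11 and 14, and 2 held AP-1. The site of 14 fragments lay just under the median BRG1 height and the others above it, and no BRG1 peak without ACTL6A or NRF2 was assigned to the gene.

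Of 24 receptor tyrosine kinase and gastric cancer oncogenes 6 had a site (25.0%). More of the 24, 18, had a BRG1 peak without ACTL6A or NRF2. EGFR, the epidermal growth factor receptor, had 4 sites with 31, 5, 72 and 75 BRG1 and 8, 4, 18 and 15 ACTL6A fragments. Its introns held 3 of them, and 16 BRG1 peaks without ACTL6A or NRF2 were assigned to the gene. MET, the receptor of hepatocyte growth factor, had 3 intronic sites with 21, 24 and 21 BRG1 fragments, and 2 held AP-1. The insulin-like growth factor receptor gene IGF1R had 3 with 21, 17 and 50. At all 3 receptors the sites lay inside or upstream of the gene, and 1 EGFR site lay below the lower quartile of BRG1 height.

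Of 33 glutathione, ferroptosis and NRF2 target genes 9 had a site (27.3%), although none of these sites shared a base with an NRF2 peak, by the rule. More of the 33, 25 (75.8%), had a BRG1 peak without ACTL6A or NRF2. ABCC3, an export pump for organic anions, had 4 with 18, 74, 9 and 7 BRG1 fragments and 8, 15, 7 and 7 ACTL6A fragments. The first lay in an exon of CACNA1G and the others in ABCC3 itself, and the 74-fragment site stood well above the rest. YAP and TEAD pathway genes had sites at 8 of 26 (30.8%), and 16 (61.5%) had a BRG1 peak without ACTL6A or NRF2.

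The list of AP-1 subunits was drawn more widely than the FOS and JUN families and also held ATF, BATF and MAF genes. It had sites at 5 of 15 genes (33.3%), which were FOS, FOSL2, ATF3, BATF3 and MAFK, and 13 (86.7%) had a BRG1 peak without ACTL6A or NRF2. Of 28 gastric and gut lineage factors 4 had a site (14.3%), GATA4, GATA5, CDX1 and KLF5, and 18 (64.3%) had such a BRG1 peak. GATA5 had 3 sites, between genes, with 10, 16 and 13 BRG1 and 10, 9 and 8 ACTL6A fragments, level at the first site and with more BRG1 at the others. Mesenchymal switch genes had sites at 3 of 18 (SNAI1, SNAI2 and TWIST2), and SWI/SNF subunit genes at 5 of 27 (SMARCB1, SMARCD2, ARID1A, ARID1B and BRD9). In both lists 66.7% of genes had a BRG1 peak without ACTL6A or NRF2. Genes of these short counts were named after their values had been seen, except GATA5, and so were those of the next paragraph except MBP and RBFOX3.

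Marker lists of other cell types and ribosomal protein genes were also counted. Neuronal and glial markers had sites at 5 of 24 (20.8%), MBP, RBFOX3, MAP2, GFAP and CNTNAP2. Ribosomal protein genes had them at 4 of 22 (18.2%), RPL3, RPLP1, RPS14 and RPS24, and blood cell markers at 2 of 21 (9.52%), MS4A1 and ITGAM. In the same order 54.2%, 59.1% and 47.6% of genes had a BRG1 peak without ACTL6A or NRF2. MBP, the gene of a myelin protein, had 3 sites with 23, 6 and 12 BRG1 fragments and RBFOX3, a neuronal splicing factor gene, had 3 with 14, 6 and 8. With intervals as wide as 15.2% to 58.3% for the AP-1 subunits, the lists were too short to be ranked, and they were drawn up with earlier results of these data known.

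Sites were mostly scattered. Joined within 12500 bp, 726 of them (16%) fell in 333 groups of at least 2, and 40 groups held at least 3. The group of 4 at KRT19 spanned 19168 bp. Another 4 lay near CSNK1D and CD7 over LINC01970 and ENSG00000260563 (chr17:82281758-82298581), with 23 to 75 BRG1 fragments, and 4 near GLIS2 and TFAP4 over ENSG00000288935 (chr16:4288474-4310142), with 23 to 55. A group of 5 near NPIPB11, with 12 to 128, overlapped ENSG00000284685 and ENSG00000260953.

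The largest group, 10 sites over 47100 bp of chromosome 19 (chr19:50092534-50139633) near IZUMO2 and ZNF473, and the second, 6 sites over 48973 bp near SULT2A1 and BSPH1 (chr19:47907287-47956259), shared 1 sequence. IZUMO2 belongs to a family of sperm proteins and SULT2A1 encodes a sulfotransferase of steroids and bile acids, and every site lay more than 20 kb from a 5′ end of either. All 10 sites of the former group and 5 of the latter were copies of it. The 200 bp window of the first copy was found again around each other summit with 98.0% to 100% identity (median 99.5%), though the groups are 2147819 bp apart. The first copy of each group is printed with the 127 bases identical in all 15 copies in capitals. The groups carry it in opposite orientations.
ZNF473, between genes, chr19:50092572-50092771: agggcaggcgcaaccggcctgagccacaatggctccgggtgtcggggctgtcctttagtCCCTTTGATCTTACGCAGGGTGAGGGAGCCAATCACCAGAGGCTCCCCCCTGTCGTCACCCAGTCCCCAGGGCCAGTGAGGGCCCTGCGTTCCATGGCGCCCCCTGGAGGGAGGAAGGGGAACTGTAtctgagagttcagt
SULT2A1, between genes, chr19:47907486-47907685: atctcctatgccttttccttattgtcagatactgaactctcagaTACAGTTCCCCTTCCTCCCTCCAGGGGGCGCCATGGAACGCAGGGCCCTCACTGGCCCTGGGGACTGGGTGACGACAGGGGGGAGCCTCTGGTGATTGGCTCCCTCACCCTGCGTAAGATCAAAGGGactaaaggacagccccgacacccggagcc

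These copies were among the highest of all sites. The 5 near SULT2A1 and BSPH1 had 71, 101, 95, 110 and 82 BRG1 fragments and 15, 20, 17, 20 and 18 ACTL6A fragments, against 4.32 to 6.20 BRG1 fragments expected. The 10 near ZNF473 and IZUMO2 had 66 to 119 BRG1 and 12 to 28 ACTL6A fragments, with 5.08 to 15.6 BRG1 fragments expected. Of the 100 sites with the most BRG1 fragments 13 were such copies. Consecutive copies within a group lay 3030 to 10780 bp apart, and 9 of the 10 near IZUMO2 lay in the lncRNA gene ENSG00000287001. Windows of 4 further BRG1 peaks of chromosome 19 had the sequence, 2 of them with NRF2 as well and 1 without ACTL6A. Reads were kept where they mapped uniquely, and how reads of such copies were divided among them was not tested.

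The sites at CCDC200 were of the same kind. Of its 6 sites 5 were near-identical copies 11825 to 17538 bp apart, with 56 to 69 BRG1 fragments, though against an expectation of 17.7 to 29.7. Over all sites 284 (6.26%) had a window that shared at least 50 stretches of 25 bases with another, and keeping 1 window of each family left the shares of all 16 motifs within their intervals.

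Chromosomes differed far more in the number of sites per Mb than in the share of BRG1 peaks that were such sites. Chromosome 19 had 5.92 sites per Mb of known sequence and chromosome 17 had 4.94, against 0.362 on chromosome X. Of the distal BRG1 peaks 16.9% (15.3% to 18.6%) on chromosome 19, 15.7% (14.4% to 17.1%) on chromosome 17 and 13.1% (10.2% to 16.6%) on chromosome X met the rule. The lowest share was 11.3% on chromosome 8 and the highest 20.7% on chromosome Y, where 12 of 58 peaks did and the interval reached from 12.3% to 32.8%.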

How the data were processed

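Peak lists of 5 CUT&Tag libraries (BRG1, ACTL6A, NRF2 and 2 IgG, 1 library per antibody) were used. The authors mapped reads with BWA, used those that mapped uniquely, and called peaks with MACS2. The control given to the caller is not given in the sources used here. Each deposited peak has a score, a fold enrichment (a ratio of fragments over expectation with a pseudocount), and −log10 p and −log10 q-values. The lists hold no library totals, and the read totals that the study's methods give were not used here. Fragments at a summit were the whole number that gave both the deposited fold and the −log10 p-value within 0.001, found for 99.7% of BRG1 and of ACTL6A peaks.

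GENCODE release 44 on GRCh38 supplied transcripts and genes. Motifs were searched on both strands in 200 bp around BRG1 summits, with windows centred 1 kb to each side as flanks. Shares have Wilson 95% intervals and differences Newcombe intervals at 99.90%, and both treat sites as independent. Families of near-identical windows were sought after the data had been seen. Genes were named by rule: the 15 with the most sites, those nearest the 10 highest BRG1 and 5 highest ACTL6A sites, list genes with at least 3, and those overlapping the 5 largest groups. Sites, gene lists and motifs were chosen with earlier results of these data known. Repeat content was not analysed here. Routines were tested on simulated data. Scripts ran in Python 3.11.15 with pandas 2.3.3, NumPy 2.4.6, matplotlib 3.10.9 and SciPy 1.17.1. Alternatives were other windows, q-values, overlaps, distances, assignments and joining distances, leaving out either or no IgG list, and strata of height and GC content.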

Additional observations from a re-analysis of the deposited data

How the results depend on the processing

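The number of sites depended on the peak threshold and on the overlap. It was 1400 where both peaks had a −log10 q of 5 or more and 2794 where 50% of each peak had to overlap, against 4539, and stayed between 3093 and 4918 under the other 6 alternatives. The genes with a site fell to 1046 at that q threshold, and groups of at least 3 numbered 13 with a joining distance of 5 kb and 121 with 25 kb. The intron share was 35.0% beyond 10 kb of a 5′ end and 38.6% at the q threshold. The AP-1 share was 14.2% in windows of 100 bp, 28.8% in 400 bp, 28.7% at the q threshold, 23.9% with the 50% overlap, 24.5% beyond 10 kb, and 20.1% around ACTL6A summits. The CTCF share was 2.58% in 100 bp and 7.34% in 400 bp.

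The AP-1 difference from distal BRG1 peaks without ACTL6A or NRF2, 6.0 points, was -3.5 at the q threshold. It was -2.6, -2.8, -1.4 and 2.8 points in the 4 classes of BRG1 fragments, -2.4 below 40% GC, -1.3 standardised over fragments and -0.53 over fragments and GC content. The CTCF difference from the same peaks was 0.26 at the q threshold, 1.6 at 16 to 31 fragments, 0.22 at 32 and more, 0.26 below 40% GC and 1.4 at 40% to 50%. The SP difference was -0.53 under 8 fragments, -1.6 at 16 to 31, -5.0 at 32 and more, -1.4 standardised over fragments and -1.0 over both. Against sites with NRF2, the AP-1 difference was -44.9 below 40% GC (2 such sites held NRF2), -0.44 at 50% to 60% and -5.4 above, GATA was -1.9 under 8 fragments and SP was 1.2 at 40% to 50% GC. Against promoters, GATA was -1.3 under 8 fragments. Why these values turned was not tested further. Standardising and keeping 1 window per family were added after the data had been seen. At the q threshold 9 of the 11 gene list counts moved by over 1.5 times. No paired analysis was possible because BRG1, ACTL6A and NRF2 each had 1 library and the 2 IgG libraries had no numbered partner in another group beyond the first. The median site had 7 ACTL6A fragments, a small count.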

Other observations

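ACTL6A outnumbered BRG1 at 409 of the 4508 sites with both numbers (9.07%), with a median of 7 ACTL6A and 5 BRG1 fragments, and 37 of them had at least 30 ACTL6A fragments. A group of 4 sites at chr21:9800934-9821012, 700541 to 720476 bp from TPTE, had 12 to 15 BRG1 and 14 to 54 ACTL6A fragments, with ACTL6A higher at 3 of them. Another, of 4 sites near BSG and GZMM over BSG-AS1, had 13 to 24 BRG1 and 5 to 47 ACTL6A fragments, and ACTL6A was higher at the 3 nearest to BSG, while the site nearest to GZMM had 16 BRG1 and 5 ACTL6A fragments.

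Sites farther than 1 Mb from any protein-coding 5′ end numbered 72, and 36 of them lay on the short arm of chromosome 21, with a median of 18.5 BRG1 fragments against 0.973 expected and a highest value of 154.

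Beside the arrays of chromosome 19, near-identical windows were also found far apart. The largest family had 26 windows on 15 chromosomes, with 4 to 19 BRG1 and 3 to 13 ACTL6A fragments, of which 7 held AP-1, and the next had 20 windows on 10 chromosomes, with 3 to 15 and 3 to 14 fragments and 0 with AP-1. How reads were divided among such copies was not tested.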
